A study of Homo sapiens with 62 samples.

Results

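Clones of 1 engineered chromosome loss, 3 in all and each grown from a single cell, were compared with each other. The line is A2058, a human melanoma line that gained copies of chromosome arms 1q, 7p and 8q, and the clones were made by ReDACT-CO, 1 of the engineering approaches of the study for eliminating a gained arm, aimed at 7p. Of the 62 RNA-sequencing libraries of the study, 6 came from these clones: 2 from 7p-loss clone 1 and 4 from 7p-loss clones 2 and 3 (2 each). Clone 1 was set apart by measured values, a lower level of 17p genes and a higher level of the tyrosinase gene TYR, so every contrast that holds clone 1 is given here as a description. Parental cells (WT, 4 libraries), which keep the 7p gain, and 4 libraries each of A2058 clones that lost 1q or 8q gave a reference. All of these cells were plated 24 hours before RNA extraction, and no drug is named for any of them. Each clone grew from 1 cell, so the 2 libraries of a clone are not independent clones, and the contrast is 1 clone against 2. The labels do not say whether the libraries of a clone came from separate cultures, and p-values then measure only the spread between libraries, which may be technical.

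Melanin is made in melanosomes from tyrosine. Tyrosinase (TYR) carries out the rate-limiting steps, TYRP1 and DCT act on later intermediates, PMEL forms the fibrils on which the pigment is laid down, and MLPH, MYO5A and RAB27A carry the organelle along actin. The transcription factor MITF, with SOX10 and PAX3, drives these genes in melanocytes, and melanoma cells can move from this differentiated programme towards one marked by SOX9, NGFR, AXL and WNT5A. The short arm of chromosome 17 holds many housekeeping genes.

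Total counts were 20306866 to 28622197 in the 6 libraries and 19595543 to 23480032 in WT. The melanoma and melanocyte markers SOX10, MITF, PMEL, MLANA, S100B and TYR summed to 1737 to 3002 CPM, counts scaled to 1000000 counts a library, in clone 1, 1009 to 1542 in clones 2 and 3 and 1751 to 2739 in WT. The sum includes TYR, which helped to choose clone 1 and was far higher there, so it does not compare lineage levels between the clones. Leukocyte markers summed to at most 1.61 CPM in these 10 libraries, with CD3E and CD68 at 0 in all 6 libraries of the clones. Endothelial markers summed to at most 6.75 CPM, and the keratinocyte marker KRT5 was at 0 in the 6 libraries. KRT18 led the epithelial list, which summed to 42.2 and 43.0 CPM in clone 1 and 70.3 to 126 in clones 2 and 3. Fibroblast markers summed to 3.32 to 12.9 CPM in the clones and 19.9 to 28.6 in WT.

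Expression over all 15661 tested genes set clone 1 apart from both other clones. Pearson's r between log2 CPM values, taken across genes, which are not independent replicates, was 0.987 between the libraries of clone 1, 0.969 to 0.978 between clones 2 and 3, and 0.926 to 0.940 between clone 1 and those 2 clones. Against WT, clone 1 stood at 0.943 to 0.959 and clones 2 and 3 at 0.967 to 0.981. edgeR's quasi-likelihood test called 5440 genes (34.7%) between clone 1 and clones 2 and 3 at a Benjamini-Hochberg adjusted p under 0.05, 2725 higher (17.4%) and 2715 lower (17.3%) in clone 1. With the replicate number as a block the total was 6295, and the list counts of clone 1 given below come from the fit without it. Clone 1 alone against clone 2 gave 4570 (29.2%), or 7158 with the replicate number as a block, and against clone 3 it gave 4952 (31.6%), or 7438 with the block. Clone 2 against clone 3, the contrast without clone 1, gave 106 called genes (0.677%), or 1063 with the block. Leaving out 1 library lowered these counts. Without replicate 1 or replicate 2 of clone 1, that of clone 1 against clones 2 and 3 was 2951 or 2999. Without 1 library of either clone compared, clone 1 against clone 2 gave 2372 to 2745, clone 1 against clone 3 gave 2937 to 3246, and clone 2 against clone 3 gave 22 to 33. Both libraries of clone 1 lay outside the range of the 4 libraries of clones 2 and 3 for 8503 genes (54.3%). Clone 1 against WT gave 5601 of 15681 genes (35.7%), or 3276 without clone 1 replicate 1. The block, which kept only WT replicates 1 and 2, gave 3979. Of the 5440 called genes, 4669 (85.8%) had a WT mean nearer to that of clones 2 and 3 than to that of clone 1. The share over all tested genes is not given, and the mean of clones 2 and 3 rests on 4 libraries against 2 for clone 1.

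The targeted arm was low in all 3 clones. Median log2 CPM of the 248 tested 7p genes, set against WT and corrected by the median over genes of the other autosomal arms, was -0.47 and -0.44 in the 2 libraries of clone 1, -0.51 and -0.55 in clone 2, and -0.51 and -0.56 in clone 3. These values put 7p at 72.8% of WT in clone 1, 69.2% in clone 2 and 69.0% in clone 3, with WT libraries between -0.01 and 0.00. Set against clones 2 and 3 directly, 7p in clone 1 was higher by 0.08 (SD 0.007, n = 2), by 0.027 over genes with a mean of at least 10 CPM and by 0.049 from clone 3 alone.

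Only clone 1 was low on 17p among the clones of this loss. The files list 922 genes on 17p, 345 of them protein-coding, and 280 passed the filter on low counts (226 protein-coding). Against WT their shift was -0.55 and -0.51 in clone 1 (69.2% of WT), 0.00 and 0.01 in clone 2, and 0.03 and 0.06 in clone 3. WT libraries ran from -0.04 to 0.05, and the means of the 1q-loss and 8q-loss clones of A2058 from -0.001 to 0.064. Against clones 2 and 3, the shift of clone 1 was -0.53 (SD 0.045, n = 2). Over the 39 other arms with at least 30 tested genes, the same value lay between -0.18 (5p) and 0.22 (18p), and none of these arms had both clone 1 libraries past 0.2 in 1 direction. Gene by gene, there were 170 of 280 17p genes (60.7%) on which both clone 1 libraries lay below all 4 libraries of clones 2 and 3, beside 26.3% of all tested genes, and 32 (11.4%) on which they lay above, beside 28.0%. The per-gene log2 difference on 17p had a median of -0.54 and quartiles of -0.99 and -0.06, beside -0.01, -0.39 and 0.33 over all tested genes.

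**Figure D1:**
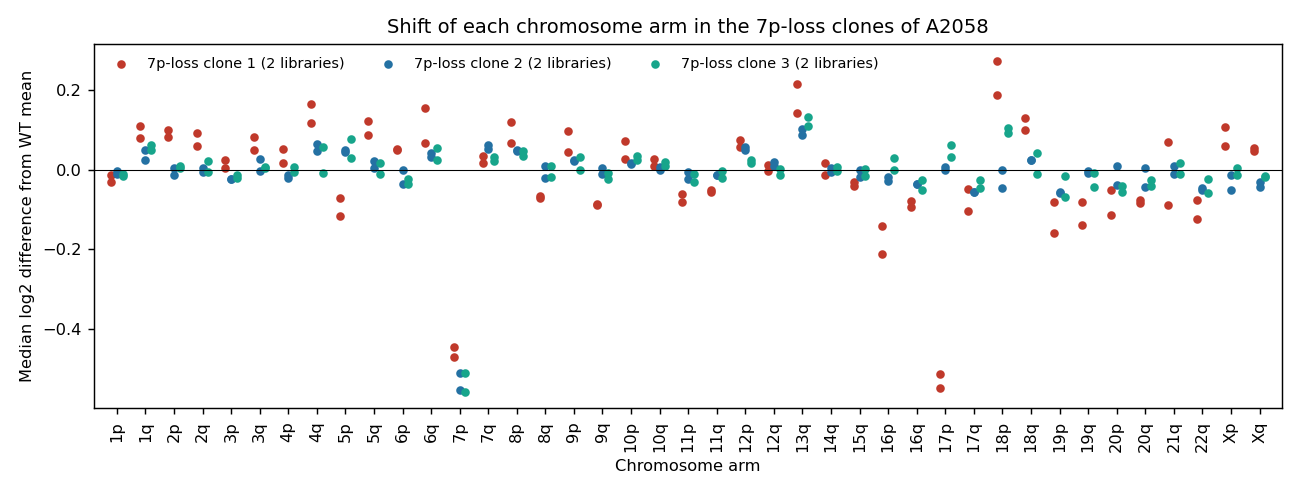
Median log2 difference from the WT mean (y axis) for each chromosome arm with at least 30 tested genes (x axis), corrected by the median over genes of autosomal arms other than 7p and 17p; each point is 1 library of 7p-loss clone 1, 2 or 3. All clones sit near -0.5 on 7p, and on 17p the clone 1 libraries sit at -0.55 and -0.51 while the others lie at 0.00 to 0.06.

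Genes of the basic cell machinery were among the low 17p genes. EIF5A, a translation factor, had 685 and 695 CPM in clone 1, 1318 and 1161 in clone 2, 1276 and 1214 in clone 3, and 1134 to 1347 in WT. POLR2A, the largest subunit of RNA polymerase II, had 331 and 285 CPM in clone 1 and 459 to 589 in clones 2 and 3. C1QBP, a mitochondrial matrix protein needed for mitochondrial translation, had 306 and 321 CPM in clone 1, 773 to 843 in clones 2 and 3 and 667 to 780 in WT. Clone 1 lay below every other library in EIF5A, POLR2A and C1QBP, with log2 differences from clones 2 and 3 of -0.86 (SE 0.08), -0.79 (SE 0.12) and -1.38 (SE 0.07). SEs here measure only the spread between libraries, and the level of 17p genes helped to choose clone 1. SCO1, a copper chaperone of cytochrome c oxidase, had 52.0 and 56.9 CPM in clone 1 against 153 to 173, a log2 difference of -1.56 (SE 0.08). ELAC2, which trims tRNA ends, had 118 and 119 CPM against 246 to 276. TOP3A, a topoisomerase, had 80.6 and 81.8 CPM in clone 1 and 174 to 188 in clones 2 and 3.

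In the list of 17p transcription and tumour-suppressor genes, 8 of 13 tested were called lower and 2 higher, with a median log2 difference of -0.51. The list of translation, cell cycle and DNA genes had 8 of 11 lower and 0 higher (median -0.61), the signalling and cytoskeleton list 9 of 12 lower and 1 higher (-0.45), and the metabolism, mitochondria and turnover list 9 of 13 lower and 2 higher (-0.70). The median over all tested genes was -0.01, with 17.4% called higher and 17.3% lower, and nothing is read from these counts because the members were chosen by their arm. CRK, an adaptor of tyrosine kinase signalling, had 148 and 143 CPM against 216 to 242. YWHAE, a 14-3-3 protein, had 727 and 686 CPM against 994 to 1093, and PFN1, which binds actin monomers, had 826 and 791 CPM against 1058 to 1242. By the naming rule the lowest 17p gene was NLRP1, an inflammasome sensor, with 3.45 and 1.76 CPM in clone 1 and 43.6 to 55.1 in clones 2 and 3. PITPNM3, ATP2A3, CENPV and P2RX5 followed, at log2 differences of -3.58, -3.64, -3.18 and -2.97. CENPV had 9.41 and 8.14 CPM in clone 1 against 75.5 to 81.3. PITPNM3 and CENPV share bases with PIMREG and PIGL on the opposite strand, and P2RX5 with a readthrough transcript, and such reads cannot be told apart.

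A group of 17p genes ran the other way. CHD3, a chromatin remodeller, had 452 and 418 CPM in clone 1 against 227 to 296, and MYH10, a non-muscle myosin heavy chain, had 396 and 405 CPM against 175 to 238. Farther towards the centromere, ULK2, an autophagy kinase, had 42.7 and 42.3 CPM in clone 1 against 18.2 to 20.5. ALDH3A2, a fatty aldehyde dehydrogenase, had 114 and 109 CPM against 53.7 to 61.5, and SLC47A1, an organic cation transporter, had 18.8 and 25.9 CPM against 4.65 to 5.55. STX8 was the fifth of the highest 17p genes by the naming rule, at a log2 difference of 0.71.

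Read along the chromosome, clone 1 differed from WT in blocks on both arms of chromosome 17. These runs of neighbouring genes, limited to genes with a mean of at least 5 CPM, and those of clones 2 and 3 given after them, were bounded after their values were seen, so their values are a description with no test. From VPS53 to SAT2 (17:508668-7627876, 99 genes) clone 1 stood at -0.73 and -0.72 relative to WT, 60.6% of WT, and 91 of the 99 genes lay below all WT libraries in both clone 1 libraries, beside 26.1% of all tested genes. SCO1 to COX10 (17:10672474-14208677, 7 genes) stood at -1.04 and -0.97, 49.9% of WT, with all 7 genes below WT. PMP22 to MAPK7 (17:15229777-19383544, 45 genes) stood at -0.39 and -0.38, and ALDH3A2 to C17orf51 (17:19648136-21574517, 10 genes) at -0.07 and -0.11. In each of these 17p runs the medians of clones 2 and 3 lay between -0.09 and 0.08.

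On 17q, clone 1 held a long run below WT and a terminal run above it, and 4 genes from TAOK1 to GIT1 (17:29390464-29594054) also stood above WT, at 0.78 and 0.89. From CWC25 to PLEKHM1 (17:38800434-45490749, 107 genes) clone 1 stood at -0.58 and -0.53, 68.2% of WT, and 83 of the 107 genes lay below all WT libraries. The 51 genes from RPTOR to METRNL (17:80544819-83095119), at the end of the long arm, stood at 1.20 and 1.17, 228% of WT, and 49 of them lay above all WT libraries, beside 28.4% of all tested genes. This run holds ACTG1, a cytoplasmic actin with 8129 and 8150 CPM in clone 1, 2882 to 3166 in clones 2 and 3 and 2853 to 3214 in WT. P4HB, a protein disulfide isomerase, had 1577 and 1255 CPM against 408 to 477 in clones 2 and 3, and ARHGDIA, which holds small GTPases inactive, had 454 and 497 CPM against 104 to 122. The 241 genes between the 2 runs, KANSL1 to RNF213, stood at -0.04 and 0.03. Copy number was not measured, and expression alone cannot tell a change in copies from a change in transcription.

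The contrast of clones 2 and 3 with WT, which does not use clone 1, showed other blocks of 17q. Over WSB1 to NUFIP2 (17:27294076-29294118, 29 genes) the 4 libraries of clones 2 and 3 stood between -1.26 and -1.20, 42.4% of WT, while clone 1 stood at -0.42 and -0.32. Over ZNHIT3 to ARHGAP23 (17:36486629-38512392, 15 genes) clones 2 and 3 stood between -1.26 and -0.90, while clone 1 stood at -0.33 and -0.45. SUPT6H, a transcription elongation factor in the first block, had 98.1 and 105 CPM in clone 2, 106 and 99.4 in clone 3 and 231 to 253 in WT, and clone 1 had 177 and 180. NLK, a serine-threonine kinase in that block, had 15.4 to 19.5 CPM in clones 2 and 3, 44.9 to 50.1 in WT and 43.9 and 47.8 in clone 1. AATF, in the second block, had 34.2 to 37.6 CPM in clones 2 and 3, 110 to 121 in WT and 96.1 and 98.0 in clone 1. The same blocks were low in 1q-loss clone 1 of A2058 (-1.33 and -1.04) and not in 1q-loss clone 2 or either 8q-loss clone (-0.19 to 0.31). The terminal run from RPTOR, high in clone 1, stood at -0.36 to -0.27 in clones 2 and 3 and at -0.45 to -0.28 in the 1q-loss and 8q-loss clones, so WT lay between clone 1 and all 6 of these other clones.

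**Figure D2:**
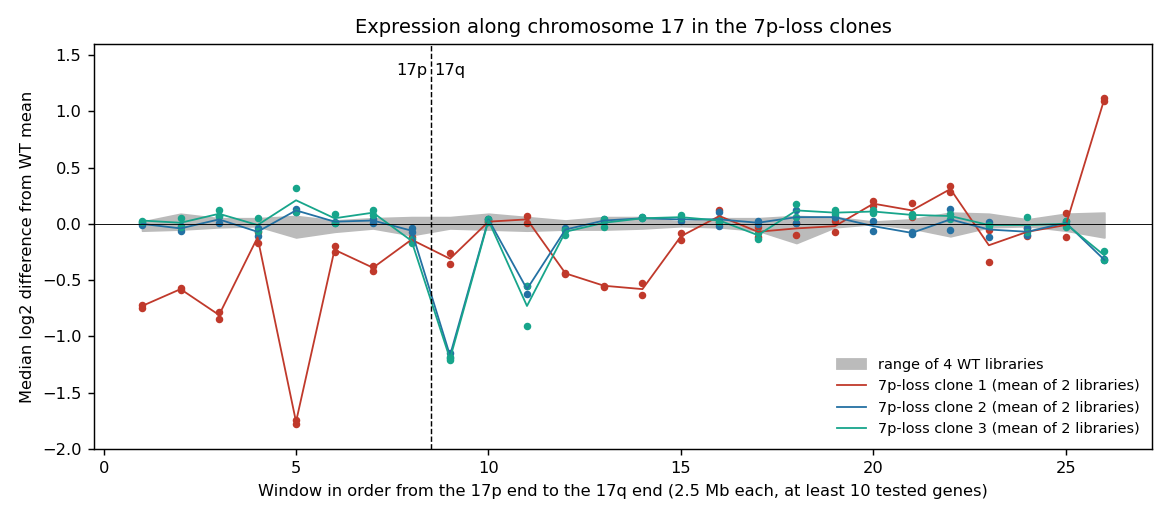
Median log2 difference from the WT mean (y axis) in 2.5 Mb windows that hold 10 or more tested genes, in order from the 17p end to the 17q end (x axis; windows with fewer genes are left out); points are libraries, lines are clone means, and the grey band is the range of the 4 WT libraries. Clone 1 is low over the first 3 windows (-0.81 to -0.58), near WT in the fourth (-0.12), lowest in the fifth (-1.76) and highest in the last (1.11), while clones 2 and 3 drop to -1.17 and -1.20 in the first 17q window. The windows have no limit on CPM, and the fifth holds 14 genes. The overlapping run SCO1 to COX10, limited to a mean of at least 5 CPM, stands at -1.04 and -0.97 in clone 1.

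Pigmentation genes did not all differ in 1 direction. Of 18 melanin and melanosome genes, 8 were called higher and 1 lower in clone 1 than in clones 2 and 3, beside 17.4% and 17.3% of all genes, with a median log2 difference of 0.56 beside -0.01 over all genes. TYR is 1 of the 8 and helped to choose clone 1. TYR (ENSG00000077498, 11:89177452-89295759) had 583 and 1066 CPM in clone 1, 1.07 and 4.91 in clone 2, 0.0963 and 1.06 in clone 3, and 96.3 to 157 in WT. The 3 sets of libraries did not overlap: clone 1 lay above WT, and clones 2 and 3 below it. Its mean in clone 1 was 6.79 times that of WT, and the 1q-loss and 8q-loss clones, with at most 6.63 CPM, were also below WT. TYRP1 had 145 and 294 CPM in clone 1, 5.35 and 6.28 in clone 2, 0.530 and 1.11 in clone 3 and 9.77 to 19.8 in WT.

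The sequences before the start sites of these enzymes are shown because TYR and TYRP1 were high in clone 1 together and DCT was not. They are 250 bases upstream of RefSeq starts (GRCh38.p14), on the strand of the gene, and capitals mark CATGTG or its reverse complement CACATG, the core of the M-box that MITF can bind. The TYR window is chr11:89177625-89177874 (plus strand), that of TYRP1 chr9:12693135-12693384 (plus strand), and those of the 2 starts of DCT chr13:94549407-94549656 and chr13:94479683-94479932 (minus strand).
TYR: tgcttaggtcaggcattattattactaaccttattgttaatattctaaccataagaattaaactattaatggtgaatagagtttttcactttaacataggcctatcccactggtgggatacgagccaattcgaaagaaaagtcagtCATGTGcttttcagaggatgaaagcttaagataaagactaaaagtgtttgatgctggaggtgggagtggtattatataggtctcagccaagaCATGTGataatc
TYRP1: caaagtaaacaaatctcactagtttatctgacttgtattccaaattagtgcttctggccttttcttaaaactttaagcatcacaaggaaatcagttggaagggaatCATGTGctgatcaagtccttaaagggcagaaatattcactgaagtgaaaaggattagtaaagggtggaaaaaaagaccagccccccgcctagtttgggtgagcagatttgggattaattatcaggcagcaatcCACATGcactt
DCT start 1: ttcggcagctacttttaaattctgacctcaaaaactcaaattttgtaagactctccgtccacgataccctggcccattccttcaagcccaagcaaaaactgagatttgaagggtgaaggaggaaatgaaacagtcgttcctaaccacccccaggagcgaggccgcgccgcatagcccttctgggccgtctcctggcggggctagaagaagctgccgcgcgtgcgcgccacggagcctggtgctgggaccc
DCT start 2: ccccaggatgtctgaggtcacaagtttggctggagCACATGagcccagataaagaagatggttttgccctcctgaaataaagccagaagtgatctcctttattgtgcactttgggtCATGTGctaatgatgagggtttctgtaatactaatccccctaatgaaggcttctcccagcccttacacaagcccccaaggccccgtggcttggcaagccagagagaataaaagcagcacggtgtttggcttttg
TYR held the motif 104 and 12 bases before its start, TYRP1 144 and 11 bases before, and the second DCT start 215 and 134 bases before. Of 35116 RefSeq promoters, 3307 (9.4%) held CATGTG on either strand. Among the 18 list genes, 15 had an entry, with 28 starts in all, and 9 of these starts (32.1%) held it, from 8 genes (DCT, GPR143, HPS4, OCA2, SLC24A5, TRPM1, TYR and TYRP1). Of those 8, TYR, which helped to choose clone 1, TYRP1 and TRPM1 had both clone 1 libraries above all libraries of clones 2 and 3 and GPR143 had both below, beside 28.0% and 26.3% of all tested genes, and the other 4 overlapped. The palindrome CACGTG, another E-box, was in 6.3% of all promoters and in those of MLPH and ATP7A.

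DCT and PMEL, the other abundant pigment genes, split by replicate number and not by clone. DCT had 285 and 1788 CPM in the replicates of clone 1, 293 and 1172 in clone 2, 330 and 1038 in clone 3 and 827 to 1702 in WT. PMEL had 189 and 991 CPM in clone 1, 188 and 591 in clone 2, 213 and 577 in clone 3 and 775 to 1707 in WT. In both genes the first replicate of every 7p-loss clone was the lower one, and clone 1 overlapped clones 2 and 3. PMEL shares bases with CDK2 on the opposite strand, and whether the counting used strand is not stated.

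MLPH, the linker between the melanosome and its motor, had 55.1 and 70.6 CPM in clone 1, 8.47 and 10.6 in clone 2, 6.88 and 16.9 in clone 3 and 17.3 to 20.1 in WT. MYO5A, the motor, had 272 and 294 CPM against 152 to 205 in clones 2 and 3, and RAB32, a GTPase of melanosome biogenesis, had 59.8 and 88.6 CPM against 35.6 to 49.3, a call lost without clone 1 replicate 2 and without clone 2. RAB27A, which tethers the organelle to MLPH, had 32.4 and 43.2 CPM against 24.4 to 29.5, with 34.4 to 42.9 in WT, and its call as higher in clone 1 was lost without clone 1 replicate 2, without either clone 2 library, without clone 3 replicate 1 and without clone 2 or clone 3. GPR143, a receptor of the melanosome membrane, was the gene called lower, with 0.443 and 0.610 CPM against 1.96 to 3.76. OCA2 and SLC45A2, also in the list, were not called, at log2 differences of -2.384 and -1.885. Both were called lower with no filter on low counts, with 1 term per clone and the replicate block, and without clone 2. MLANA, a melanosomal protein, had 3.01 and 5.06 CPM in clone 1, 1.59 to 2.10 in clones 2 and 3 and 13.9 to 23.6 in WT, so all 3 clones lay below WT, and its call as higher in clone 1 was lost without clone 1 replicate 2 and without clone 3.

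Against WT, clones 2 and 3 were low in several pigment genes. edgeR's quasi-likelihood test called 7 of the 18 lower and 0 higher in clones 2 and 3 than in WT, with a median log2 difference of -0.71. Of all 15076 genes it called 898 (5.96%), 533 lower (3.54%) and 365 higher (2.42%). This total was 477 without WT replicate 2 and 1549 with DESeq2. It was 253 with the replicate block, which kept only WT replicates 1 and 2, and 329 with those WT replicates and no block. TYR is 1 of the 7 and helped to choose clone 1. MLANA fell by 3.41 (SE 0.19, edgeR adjusted p = 7.6e-06). PMEL fell by 1.76 (SE 0.41, edgeR adjusted p = 0.0326), OCA2, a melanosome ion channel, by 2.28 (SE 0.57, adjusted p = 0.0458), and SLC45A2, a melanosome transporter, by 2.21 (SE 0.52, adjusted p = 0.0357), and each of these 3 calls was lost in at least 8 alternatives. RAB32 (adjusted p = 0.00829) was lost with the replicate block and with WT replicates 1 and 2 or 3 and 4 only, and RAB27A (adjusted p = 0.0102) without clone 2 and with WT replicates 3 and 4 only, so TYR and MLANA were the 2 of the 7 called in every alternative run. Clone 1 had 0.246 and 0.179 CPM of OCA2 and 0.493 and 0.681 of SLC45A2, below all WT libraries as well.

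SOX10 had 656 and 637 CPM in clone 1, 579 to 687 in clones 2 and 3 and 466 to 652 in WT, and MITF had 157 and 184 CPM in clone 1, 97.7 to 184 in clones 2 and 3 and 137 to 209 in WT, with overlap in both (SOX10 shares bases with POLR2F on the opposite strand). SOX9 (17:72121020-72126420), a related factor that is not on a shifted run, had 142 and 95.5 CPM in clone 1, 0.714 and 0.584 in clone 2, 0 in both libraries of clone 3 and 3.40 to 9.83 in WT. SNAI2, a zinc-finger factor of the neural crest and of melanocytes, had 59.2 and 62.5 CPM in clone 1, 3.61 to 5.35 in clones 2 and 3 and 18.1 to 31.3 in WT. Both followed the order of TYR, with clone 1 above WT and clones 2 and 3 below. SNAI2 was read outside the lists after its values had been seen. In the list of regulators and receptors, 9 members of the 15 tested passed as higher and 1 as lower in clone 1, beside 17.4% and 17.3% of all genes, with a median of 0.41. PAX3 had 49.9 and 53.2 CPM against 26.8 to 31.2, and EDNRB, the endothelin receptor of melanocytes, had 234 and 271 CPM against 79.3 to 95.6. KIT, the receptor of stem cell factor, was the gene called lower, with 0.0985 and 0.179 CPM against 1.83 to 6.33.

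**Figure D3:**
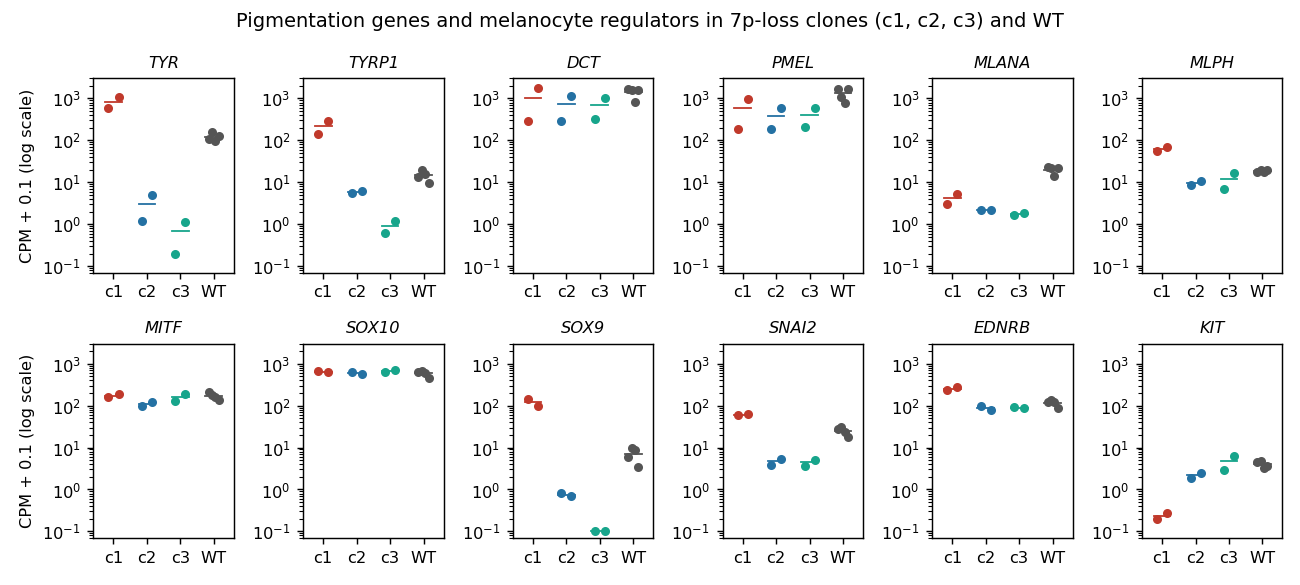
CPM plus 0.1 on a log axis (y) for 12 pigmentation genes and regulators in 7p-loss clones 1, 2 and 3 (c1, c2, c3; 2 libraries each) and WT (4 libraries); points are libraries and bars are means. TYR, TYRP1, SOX9 and SNAI2 place clone 1 above WT and clones 2 and 3 below it, whereas MITF, SOX10, DCT and PMEL overlap between the clones.

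The list of MITF-linked genes of differentiated melanoma had 2 of 21 tested members called higher and 3 lower in clone 1, beside 17.4% and 17.3% of all genes, with a median of -0.10. APOD, a lipocalin, had 2.61 and 7.35 CPM in clone 1 against 21.1 to 53.3 in clones 2 and 3, and PPARGC1A, a coactivator of mitochondrial genes, had 11.9 and 10.4 CPM against 22.9 to 31.6. CEACAM1 had 2.22 and 3.77 CPM against 9.36 to 13.4. The 2 called higher were ABCB5, a membrane transporter, with 2.22 and 5.45 CPM against 0.385 to 1.20, and CDK2, a cyclin-dependent kinase that shares bases with PMEL, with 345 and 461 CPM against 243 to 284.

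Genes of dedifferentiated or invasive melanoma were higher in clone 1 more often than lower. Of 25 tested, 9 were called higher and 1 lower, beside 17.4% and 17.3% of all genes, with a median of 0.52. NGFR, the low-affinity nerve growth factor receptor, had 523 and 174 CPM in clone 1, 51.2 and 15.6 in clone 2, 16.1 and 5.62 in clone 3 and 24.0 to 72.9 in WT, and its call was lost without clone 1 replicate 1. WNT5A had 32.9 and 12.6 CPM in clone 1 against 0 to 1.12 in clones 2 and 3 and 0.454 to 1.69 in WT. The matrix glycoprotein FN1 had 5929 and 3768 CPM in clone 1 against 1180 to 3341 in clones 2 and 3. AXL overlapped, at 438 and 218 CPM in clone 1 against 121 to 271. The first replicate was the higher one in every clone for NGFR and FN1, the reverse of DCT and PMEL.

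CCND1, the cyclin of G1 phase, had 1325 and 867 CPM in clone 1, 328 and 216 in clone 2, 150 and 66.0 in clone 3 and 267 to 457 in WT, and its call was lost without clone 1 replicate 1. In the MAPK feedback list, which holds it, 7 of 18 were called higher and 3 lower (median 0.14). Of 29 replication and mitosis genes, 12 were called higher and 1 lower (median 0.27). The shares of all genes called were 17.4% higher and 17.3% lower. MCM2, a subunit of the replicative helicase, was the lower one, with 44.5 and 44.4 CPM against 90.7 to 122 in clones 2 and 3 and 90.4 to 113 in WT, while MCM3 to MCM7 differed by -0.08 to 0.36 on the log2 scale. For 13 p53 targets, 4 were called higher and 2 lower (median 0.21), beside 17.4% and 17.3% of all genes, with CDKN1A, an inhibitor of cyclin-dependent kinases, at 31.0 and 30.9 CPM against 14.7 to 24.97.

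Antigen presentation genes were mostly higher in clone 1 and interferon-stimulated genes mostly lower or overlapping. Of 19 antigen presentation genes, 14 were called higher and 0 lower, beside 17.4% and 17.3% of all genes, with a median of 0.80. B2M, the class I light chain, had 568 and 580 CPM in clone 1 against 280 to 411 in clones 2 and 3, and ERAP2, a peptide-trimming enzyme, had 165 and 151 CPM against 69.4 to 94.6. The class II genes were uneven between the libraries of clone 1: CIITA, their master regulator, had 39.2 and 13.7 CPM and CD74, the invariant chain, 90.4 and 14.1, against at most 8.96 and 11.5 in clones 2 and 3, and both calls were lost without clone 1 replicate 1 and without clone 3, that of CD74 also without clone 2 replicate 2 or clone 3 replicate 1. Of 25 interferon-stimulated genes, 0 were called higher and 9 lower, against the same 17.4% and 17.3%, with a median of -0.43. As drawn up, this list included XAF1, which is also in a 17p list. MX2, an antiviral GTPase, had 4.98 and 5.88 CPM in clone 1, 79.95 to 95.7 in clones 2 and 3 and 75.4 to 99.2 in WT. ISG20, an exonuclease, had 4.43 and 6.74 CPM in clone 1 against 25.01 to 38.0 in clones 2 and 3 and 14.5 to 18.9 in WT, and BST2, a surface protein that tethers virions, had 2.22 and 2.22 CPM against 6.26 to 15.9.

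Most genes of cholesterol synthesis were higher in clone 1. Of 23 tested in the cholesterol and lipid list, 18 were called higher and 2 lower, beside 17.4% and 17.3% of all genes, with a median of 0.61. HMGCS1, an early enzyme of the pathway, had 49.9 and 61.6 CPM in clone 1, 19.9 to 33.2 in clones 2 and 3 and 35.5 to 40.6 in WT, and SQLE, squalene epoxidase, had 47.1 and 54.2 CPM against 20.1 to 28.5 and 34.5 to 42.4. The calls of HMGCS1 and of SREBF1 were lost without clone 1 replicate 2. SREBF2, a transcription factor of the pathway, had 206 and 212 CPM against 112 to 138 in clones 2 and 3. Its relative SREBF1, which lies in a low 17p run and shares bases with RAI1 on the opposite strand, was called lower, with 140 and 113 CPM against 184 to 263. FASN, fatty acid synthase, lies in the high terminal run of 17q and had 1334 and 1078 CPM against 416 to 495. In clones 2 and 3 against WT, 3 of 23 were called lower and 1 higher, beside 3.54% and 2.42% of all genes. SQLE fell by 0.66 (SE 0.13, edgeR adjusted p = 0.0132), and this call was lost with the replicate block and with WT replicates 1 and 2 only (adjusted p up to 0.157).

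**Figure D4:**
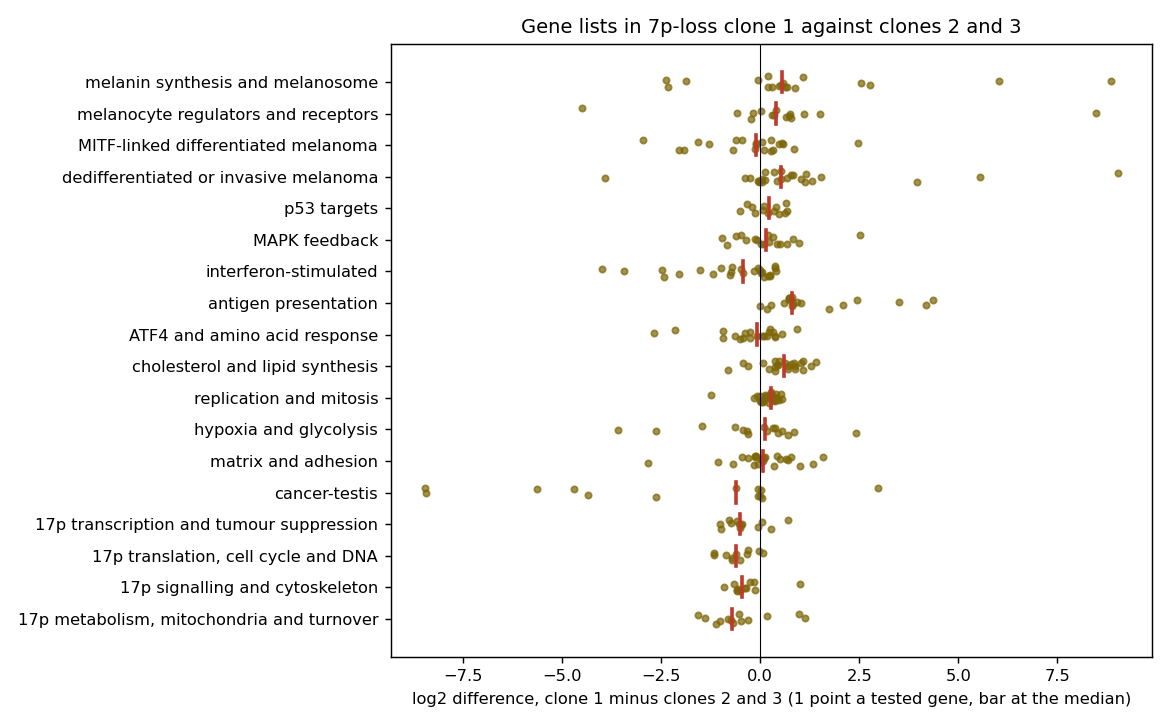
Log2 difference of clone 1 minus clones 2 and 3 (x axis) for each tested gene of the 18 lists (y axis), 1 point a gene, with a bar at the list's median. The antigen presentation (0.80) and cholesterol and lipid (0.61) medians lie above 0, the interferon-stimulated (-0.43) and 17p medians (-0.70 to -0.45) below, and the melanin list spreads from the TYR value of 8.86 to below -2.

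The remaining lists held both directions. ATF4 and amino acid response genes had 3 of 21 called higher and 3 lower (median -0.07), hypoxia and glycolysis genes 2 of 16 higher and 2 lower (0.13), and matrix and adhesion genes 5 of 24 higher and 3 lower (0.06), beside 17.4% and 17.3% of all genes. COL5A1, a fibrillar collagen, had 17.8 and 11.2 CPM in clone 1 against 68.7 to 126 in clones 2 and 3 and 103 to 144 in WT. NCAM1, a cell adhesion molecule, had 158 and 139 CPM against 34.5 to 59.6. SLC38A1, an amino acid transporter, had 42.3 to 59.8 CPM in WT and at most 1.65 CPM in all 6 libraries of the clones. In clones 2 and 3 against WT, SLC38A1 fell by 6.03 (SE 0.46, edgeR adjusted p = 4.38e-05).

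Cancer-testis genes, normally silent outside the germ line, were mostly lower or at similar levels in clone 1. Of 13 tested, 5 were called lower and 1 higher, beside 17.3% and 17.4% of all genes, with a median of -0.61. MAGEC1 had 0.296 and 0.323 CPM in clone 1, 98.3 to 119 in clones 2 and 3 and 59.0 to 82.7 in WT, and MAGEA1 had 2.66 and 4.23 CPM against 86.7 to 95.0 and 54.9 to 64.2. PAGE5 had 2.56 and 2.30 CPM in clone 1, 43.9 to 57.3 in clones 2 and 3 and 4.94 to 6.67 in WT. MAGEA3, MAGEA6 and MAGEA12 differed by -0.05 to 0.01 on the log2 scale. Members of these families are near copies of each other, and reads may be split among them. In clones 2 and 3 against WT, PAGE5 rose by 3.03 (SE 0.13, edgeR adjusted p = 6.65e-07) and MAGEA1 by 0.63 (SE 0.07, edgeR adjusted p = 3.68e-04).

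Outside 17p and 7p, 4521 protein-coding genes with a mean of at least 1 CPM were called with no overlap, 2420 higher and 2101 lower in clone 1. The smaller of the differences from clone 2 and clone 3 exceeded 4 log2 units for 24 of the higher and 64 of the lower genes. The 15 highest by this measure included TYR, SOX9, AUTS2, SLIT2, ZNF518B, GALNT18, LXN, PCDHB8, ZDBF2, CHSY3, KCNK9, SH3GL2, ECHDC2 and TYRP1. AUTS2, a chromatin and neuronal factor, had 87.3 and 77.9 CPM in clone 1, 0.385 to 0.708 in clones 2 and 3 and 5.40 to 10.3 in WT. LXN, latexin, an inhibitor of carboxypeptidases, had 7.34 and 9.83 CPM in clone 1 and 0 counts in all libraries of clones 2 and 3, and was at least 61.6-fold higher taking 3 counts per library as the floor. ZDBF2, an imprinted gene, was likewise at 0 counts in clones 2 and 3 and at least 37.1-fold higher in clone 1, with 1.09 to 1.47 CPM in WT. SLIT2, an axon guidance ligand, had 23.6 and 6.71 CPM in clone 1, at most 1 count in any library of clones 2 and 3 and 1.17 to 1.66 CPM in WT.

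The WT mean of these 15 genes was a median of 10.7% of that of clone 1 (range 1.6% to 37.3%). All libraries of clones 2 and 3 held 3 counts or fewer for 9 of the 15, genes that passed the filter through clone 1, so the choice of genes left little room for WT below those clones. KCNK9, a potassium channel, had 23.4 and 19.5 CPM in clone 1 and 0.151 to 0.503 in WT, which overlapped clones 2 and 3. Of the protocadherin beta genes, a cluster of neuronal adhesion molecules that holds PCDHB8, 14 of 15 tested lay above clones 2 and 3 in both clone 1 libraries and 0 below, beside 28.0% and 26.3% of all genes. This cluster was counted after PCDHB8 was seen, and its members share much of their sequence.

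The 15 lowest were DSG2, PASD1, MAGEC1, FKBP5, FOXR2, FHL1, NOS3, SMOC1, CDYL2, MAPK4, GHR, NHS, B3GAT1, CSMD1 and SPRR2D. DSG2, a desmosomal cadherin, had 0 and 0.0717 CPM in clone 1, 40.0 to 59.8 in clones 2 and 3 and 52.5 to 54.7 in WT. PASD1, a cancer-testis gene, had 0.345 and 0.0717 CPM in clone 1 against 83.7 to 104. FKBP5, a co-chaperone of steroid receptors, was at 0 counts in both clone 1 libraries, with 20.8 to 24.97 CPM in clones 2 and 3 and 7.49 to 11.6 in WT, and so at least 180-fold lower in clone 1 than in those clones. FOXR2, a forkhead factor, was at 0 counts in clone 1 and at least 138-fold lower. In 8 of these 15 the WT libraries overlapped those of clones 2 and 3, and the WT mean was a median of 80.9% of theirs. For 7 of the 15 both clone 1 libraries held 3 counts or fewer. In these sets of 15, LXN and NOS3 share bases with GFM1 and ATG9B on the opposite strand and GALNT18 with CSNK2A3 on the same strand, so their reads cannot be told apart.

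**Figure D5:**
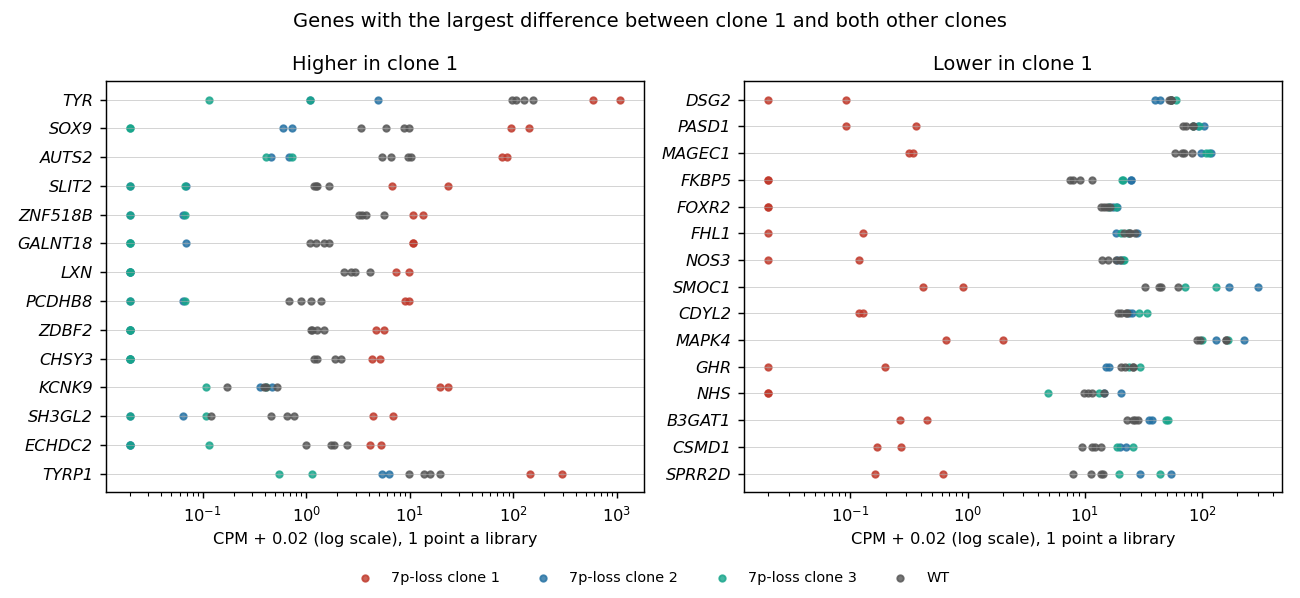
CPM plus 0.02 on a log axis (x) for genes named among the 15 highest (left, 14 drawn) and the 15 lowest (right) protein-coding genes of clone 1 against both other clones; each point is 1 library of 7p-loss clones 1, 2 and 3 or WT. The genes were picked for the gap between clone 1 and the other clones, and the WT points, which the choice did not use, overlap those of clones 2 and 3 for KCNK9 on the left.

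Clones 2 and 3 differed from each other in fewer called genes than either did from clone 1, both with and without the replicate block. Of 15661 genes, 66 were called higher in clone 2 (0.421%) and 40 higher in clone 3 (0.255%), against 1509 at an unadjusted p under 0.05. The total of 106 was 22 to 33 when 1 library of either clone was left out, 377 with DESeq2 and 970 with no filter on low counts. MYT1L, a neuronal zinc-finger factor, had 32.9 and 28.4 CPM in clone 3 and 0 counts in clones 1 and 2, at least 219-fold higher in clone 3 than in clone 2 (edgeR adjusted p = 0.00252). CPVL, a carboxypeptidase, had 6.74 and 10.9 CPM in clone 3 and 0.223 and 0.0973 in clone 2 (edgeR adjusted p = 0.0117), and clone 1 had 6.55 and 11.9. MAGEB2 had 84.5 and 81.8 CPM in clone 3, 9.59 and 8.37 in clone 2, 8.82 and 6.28 in clone 1 and 36.3 to 44.0 in WT (edgeR adjusted p = 8.96e-04 between clones 2 and 3). GALNT14, a glycosyltransferase, had 12.1 and 11 CPM in clone 2 and 0 counts in clone 3, at least 83.3-fold higher (edgeR adjusted p = 0.0116), with 3.55 and 1.65 in clone 1 and 17.5 to 21.4 in WT. RARRES2, the chemokine-like protein chemerin, had 8.74 and 8.03 CPM in clone 2 and 0 counts in clones 1 and 3 (edgeR adjusted p = 0.0113). The calls of CPVL, GALNT14 and RARRES2 were lost when a clone 2 library was left out, with adjusted p up to 0.0901, 0.0581 and 0.0884, and MYT1L and MAGEB2 were called in every alternative run. The other 6 genes among the 5 largest differences each way had low levels. GAGE12J, of a cancer-testis family whose members share sequence, COL4A5, a basement membrane collagen, and MGAM2 had 3.07 to 5.79 CPM in clone 2 and at most 0.0443 in clone 3. The antisense gene AL359853.1, FAM221A and PLAGL1, a zinc-finger factor, had 3.18 to 5.97 CPM in clone 3 and at most 0.134 in clone 2. Each of these 6 calls was lost in at least 3 of the 4 fits that left out a library of clone 2 or clone 3, with edgeR adjusted p up to 0.217 for COL4A5. With the replicate number as a block, 1063 genes were called (6.79%), 605 higher in clone 2 (3.86%) and 458 lower (2.92%). Of the 18 melanin genes, 0 were called by the edgeR test without the block, and 5 with it: 3 higher in clone 2, among them TYR (log2 difference 2.29) and TYRP1 (2.85), and 2 lower. Without the block but with no filter on low counts, edgeR also called TYR, TYRP1, OCA2 and SLC45A2, and TYRP1 was called with DESeq2 and without either clone 1 library. In the filtered fit without the block 1 of 25 dedifferentiated or invasive, 0 of 19 antigen presentation and 0 of 21 MITF-linked genes were called by edgeR. In the blocked fit, 15 of the 25 dedifferentiated or invasive genes were called higher in clone 2 and 1 lower, and 10 of the 19 antigen presentation genes higher and 0 lower. Among MITF-linked genes 1 was called higher and 8 lower. MITF, NGFR, SOX9, CCND1, WNT5A, CIITA and CD74 were not called in the filtered fit without the block (edgeR adjusted p from 0.119 for SOX9 to 0.72 for CIITA), but all 7 were with no filter on low counts, and SOX9 and WNT5A also with DESeq2. With the block, MITF was lower in clone 2 (log2 difference -0.54, edgeR adjusted p = 0.00225), and NGFR (1.59, adjusted p = 3.37e-06), SOX9 (6.86, adjusted p = 0.00166), CCND1 (1.40, adjusted p = 7.81e-05), WNT5A (7.41, adjusted p = 0.00219), CIITA (1.08, adjusted p = 0.00468) and CD74 (2.19, adjusted p = 9.98e-04) were higher.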

How the data were processed

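RNA-seq counts per gene (58735 genes a table) were analysed as the authors deposited them, 1 table a library. Per the submitters' processing notes, HISAT2 2.0.5, featureCounts 1.5.0-p3 and build hg38 were named; whether counting used strand is not given in the sources used here. Reads carry no molecular identifiers, so the counting floor of 3 counts covers counting error only. Genes were filtered with filterByExpr (minimum count 10, minimum total 15), scaled by TMM and tested with edgeR 4.0.16 (quasi-likelihood, Benjamini-Hochberg over all tested genes, R 4.3.3), with the 6 libraries of the clones in 1 fit for contrasts among clones, and the libraries of both groups for contrasts with WT. CPM are counts divided by the library total times its TMM factor (over the 18 A2058 libraries), times 1000000. Genes were put on arms by their midpoint and the centromere (25.1 Mb on chromosome 17). Alternatives used DESeq2 1.42.0, other scaling and filters, a replicate block and left-out libraries. The code was tested on simulated data.

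Named genes were drawn from the members of the lists, the 15 highest and 15 lowest protein-coding genes outside 17p and 7p by the smaller of the differences from clone 2 and clone 3 (mean of at least 1 CPM, called, no overlap), the 5 lowest and 5 highest on 17p (at least 5 CPM), and the 5 largest each way between clones 2 and 3; of the lists, most members stand only in the counts. Members and lists were chosen with earlier results of these data known. SNAI2, genes of the chromosome 17 runs and the protocadherin beta cluster were added after their values were seen. Genes of the Y chromosome are not named, and a few rule genes are not reported here. Same-numbered libraries of the 7p-loss clones deviated together (correlations of deviations across genes 0.317, 0.332 and 0.408), so these numbers were taken to pair the libraries; those with WT were -0.062 to 0.0, and WT was not paired. Promoter sequences came from RefSeq (GRCh38.p14).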

Additional observations from a re-analysis of the deposited data

Results flagged for a closer look

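Among the 4 WT libraries, 1 value lay apart from the other 3, relative to their range, for 5 genes: DCT at 827 CPM, NGFR at 72.9, DSG2 at 52.5 (the others at up to 54.7), ISG20 at 14.5 and RARRES2 at 1.55. Chance marks about 1 in 20 groups in this way.

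For 20 of the genes followed, ISG20 again among them, both clone 1 libraries lay on 1 side of all WT libraries and every library of clones 2 and 3 on the other side. The gap between the 2 differences from WT, in log2 CPM with a prior count of 2, was 9.54 for TYR, 6.52 for TYRP1, 2.62 for MLPH, 8.83 for SOX9, 3.77 for SNAI2 and 0.78 for PAX3. It was 6.83 for SLIT2, 7.05 for AUTS2, 6.58 for LXN, 5.87 for ZDBF2 and 2.14 for SLC47A1. In lipid synthesis it was 1.11 for HMGCS1, 1.05 for SQLE and -0.81 for SREBF1. Clone 1 was the lower one for MAGEC1 (-8.11), MAGEA1 (-4.73), PAGE5 (-4.28), FKBP5 (-8.0), CENPV (-3.15) and ISG20 (-2.46). These differences were not tested, since values of the same libraries set clone 1 apart.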

How the results depend on the processing

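The contrast rests on 1 clone against 2, with 2 libraries a clone, and copy number was not measured. The cause of each change below was not tested.

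Clone 2 against clone 3 gave 106 called genes by the edgeR test, 377 with DESeq2 and 970 with no filter on low counts. Clones 2 and 3 against WT gave 898, and 1549 with DESeq2; with WT replicates 1 and 2 only it gave 329 and with WT replicates 3 and 4 only 375, alternatives chosen after seeing the data. The 17p shift of clone 1 was -0.53, and -0.58 over genes with a mean CPM of at least 10. The 7p shift was 0.079, 0.027 over those genes and 0.049 with only clone 3 as the reference.

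With the replicate number as a block, the count was 6295 for clone 1 against clones 2 and 3 (5440 without the block), 1063 for clone 2 against clone 3, 7158 for clone 1 against clone 2, 7438 for clone 1 against clone 3, 3979 for clone 1 against WT (5601 without) and 253 for clones 2 and 3 against WT. With 1 term per clone and the block, chosen after seeing the data, the count for clone 1 against clones 2 and 3 was 8083. Blocked fits against WT used only WT replicates 1 and 2. Without the block, those WT replicates gave 4724 for clone 1 and 329 for clones 2 and 3.

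With single libraries left out, the counts ran from 2951 to 5037 for clone 1 against clones 2 and 3, from 22 to 94 for clone 2 against clone 3, from 2372 to 4197 for clone 1 against clone 2, from 2937 to 4342 for clone 1 against clone 3, from 3276 to 5301 for clone 1 against WT and from 477 to 1128 for clones 2 and 3 against WT. The lowest of these came without clone 1 replicate 1, clone 2 replicate 1, clone 2 replicate 1, clone 1 replicate 1, clone 1 replicate 1 and WT replicate 2, in that order. The 17p shift ran from -0.56 to -0.49 and the 7p shift from 0.054 to 0.096.

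For the 71 genes followed one by one, 1039 of 1111 values of clone 1 against clones 2 and 3 kept direction and call, 21 lost the call, 37 gained it, and 10 that were called in neither setting changed sign. The remaining 4 changed direction and gained a call: GALNT14 was at 3.33 with 1 term per clone, 3.29 with that and the replicate block and 8.87 without clone 2, and PLAGL1 at 3.50 without clone 3. Between clones 2 and 3, 751 of 850 values kept both, 28 lost the call, 35 gained it and 36 uncalled values changed sign. For clones 2 and 3 against WT, with 68 of the genes, 1058 of 1221 kept both, 59 lost the call, 46 gained it and 55 uncalled values changed sign. There RARRES2 turned to -7.17 without clone 2, and MAGEB2 to -2.12 and AL359853.1 to -7.80 without clone 3, all then called.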
